A study of Mus musculus with 3 samples.

Results

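Single-cell RNA profiles of dissociated mouse hypothalamus were compared between a library taken in recovery after heat exposure (QS) and a library from pair-fed mice (PF). PF mice were matched to the heat-exposed mice in food intake, so that lower feeding during the heat was shared by the control. A library from heat-exposed mice (HS) is given as a reference level beside each value. All 3 libraries came from male mice assigned to their groups at 8 weeks of age, and no strain, genotype or other agent is given in the sources used here. The number of mice pooled in each library, the length of recovery and the temperature are also not given there. The labels state that the tissue was dispersed with collagenase II and mechanical force, and that libraries were made with 10x Genomics 3′ chemistry. Barcodes were kept if they held at least 500 unique molecular identifiers (UMIs, 1 per captured transcript) and at most 20% mitochondrially encoded UMIs. By this rule 12645 PF and 11517 QS barcodes were kept, 24162 of the 36467 kept over all 3 libraries. After removal of called doublets, 10431 PF and 9954 QS cells fell into 9 cell classes with at least 100 cells in both libraries, and gene levels were compared within each class.

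The hypothalamus controls feeding, body temperature and hormone release. Tanycytes line the floor of its ventricle, contact blood vessels of the median eminence and pass nutrient and hormone signals to neurons. Border-associated macrophages sit along vessels and meninges, where they take up debris and present antigen, and ciliated ependymal cells line the rest of the ventricle. Immediate early genes such as Fos are switched on within minutes by many stimuli, tissue digestion among them.

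The libraries were close in size and depth, with 11837 (PF), 11641 (HS) and 10799 (QS) cells after doublet removal and medians of 6143, 6298 and 6162 UMIs per cell. PF and QS shared 49 barcode sequences. Classes were named from marker genes and carry the ending -like because they rest on RNA alone. Some cell groups were much smaller in QS. Pituitary-like cells were 147 in the PF, 100 in the HS and 8 in the QS library. Fibroblast-like cells numbered 311, 330 and 72. A cluster of fenestrated endothelial-like cells held 71, 92 and 5. Differences in cell makeup cannot be told apart from differences in dissection and digestion. With 1 library in each group there is no spread between animals to set a difference against, so no test was made. Higher and lower describe these libraries, and the 95% intervals cover counting error only. The ratios QS/PF and HS/PF have the same PF library below the line, so a peculiarity of PF would appear in both.

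Levels are given in CPM, the UMIs of a gene per 1000000 UMIs of the class. A gene was tested in a class if the library with more had at least 50 CPM and 30 UMIs and the other at least 1 UMI. It is called past the fold, or said to rise or fall, if QS/PF was at least 1.5 or at most 0.667 and its exact conditional binomial 95% interval excluded 1. Over the 9 classes 36355 pairs of a gene and a class were tested. Of these, 436 were higher in QS (1.2%) and 481 lower (1.32%), 2.52% in all. They fell on 738 genes, and 635 of those were past the fold in 1 class alone, while 11 were so in 5 or more.

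Taken as whole classes, border-associated macrophage-like cells differed most from control in recovery and tanycyte-like cells came next. Single clusters, thinned to 500000 UMIs per library and with a higher level minimum, gave another order. The larger macrophage cluster stood at 7.74%, the 2 larger tanycyte-like clusters at 10.2% and 9.68%, and an endothelial-like cluster of low UMI counts at 11.1%. In the macrophages 8.11% of 3402 tested genes were past the fold, and in tanycyte-like cells 4.59% of 4862. The other 7 classes stood at 2.14% (pericyte-like), 2.09% (oligodendrocyte-like), 1.97% (astrocyte-like), 1.34% (endothelial-like), 1.13% (vascular smooth muscle-like), 0.886% (microglia-like) and 0.788% (ependymal-like). Because small classes give wider errors, every class was also thinned to the same 1176178 UMIs per library and genes of at least 100 CPM were kept. The macrophages then stood at 7.99%, tanycyte-like cells at 4.93%, oligodendrocyte-like cells at 3.84% and astrocyte-like cells at 3.82%. Below them came endothelial-like (2.75%), pericyte-like (1.84%), vascular smooth muscle-like (1.65%), microglia-like (1.3%) and ependymal-like cells (1.28%). The spread of log2 ratios left after the counting variance was taken off was 0.394 in the macrophages, 0.272 in vascular smooth muscle-like cells and 0.26 in tanycyte-like cells. These are also the classes with the fewest cells, 148 QS cells for the macrophages, 319 for smooth muscle and 190 PF cells for tanycytes, and cell-to-cell variation is not in the counting error. Over the 1342 genes tested in every class the order changed. Here a thinned ratio of 1.5-fold either way was enough, whatever its interval. Astrocyte-like cells came first with 7.82%, then the macrophages with 3.58% and oligodendrocyte-like cells with 2.98%.

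**Figure D1:**
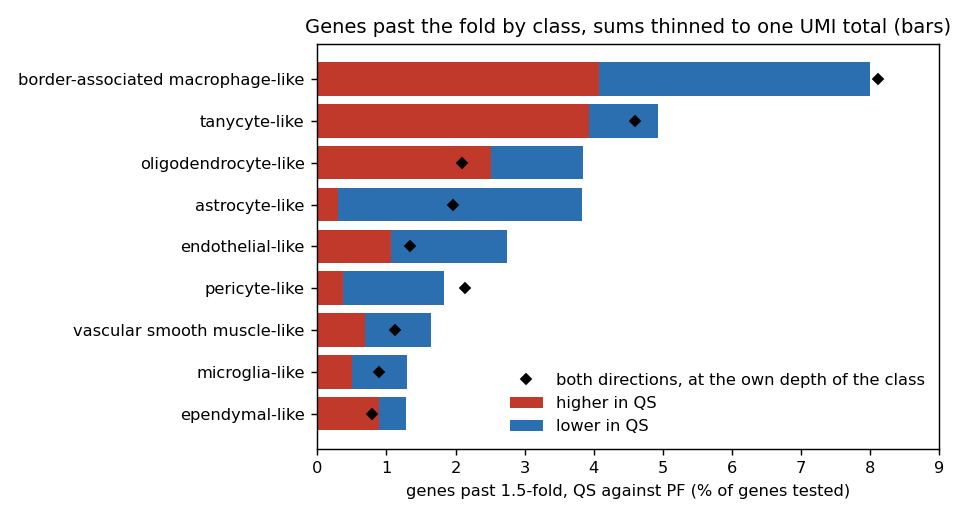
Percentage of tested genes past 1.5-fold between QS and PF in each class. Bars give genes higher (red) and lower (blue) in QS after thinning to one UMI total, and diamonds give both directions together at the depth of the class; border-associated macrophage-like cells are highest in both (7.99% and 8.11%), with tanycyte-like cells next (4.93% and 4.59%).

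Part of each class's difference lay in genes that the class itself hardly expresses. A gene was taken as a class's own if it reached 20% of the highest class CPM in either library. In the macrophages 128 of 146 higher and 110 of 130 lower genes were their own, and in tanycyte-like cells 113 of 141 and 58 of 82. In oligodendrocyte-like cells the lower side held 9 of 37 and in ependymal-like cells 2 of 13. Percentages over own genes alone were 7.45% in the macrophages, 3.84% in tanycyte-like cells and 0.332% to 1.58% in the rest.

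Genes were ranked in each class by the bound of the interval that lies nearest 1. In the full ranks haemoglobin genes led the higher side in endothelial-like, microglia-like, ependymal-like, pericyte-like and vascular smooth muscle-like cells. They led the lower side in astrocyte-like and border-associated macrophage-like cells. Hbb-bs, a beta globin, had 599 CPM in PF, 647 in HS and 1808 in QS in endothelial-like cells, and 753, 10.3 and 28.1 CPM in the macrophages. First among 3402 genes of the macrophages was 6330403K07Rik, with 7.71, 25.9 and 112 CPM, a provisional gene that had 6060, 4045 and 4258 CPM in tanycyte-like cells. Last among 3497 genes of microglia-like cells was Ifitm3, with 215, 133 and 81.5 CPM, under 20% of its highest class level. These genes were chosen after their values were seen, and the ones described by rank from here on are each class's own.

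In tanycyte-like cells all tested immediate early genes rose in QS. This class held 190 PF, 523 HS and 346 QS cells in 3 clusters. A marker counted for a cluster if it was found in at least 25% of the cells at 4 times the level of the median cluster. By this measure 1 cluster of 53, 203 and 112 cells had 10 of 10 tanycyte markers. The largest cluster, with 124, 273 and 208 cells, had 5 of 10 tanycyte and 8 of 10 ependymal markers, with Crym, Col23a1 and Rax among its 10 leading genes. It was named tanycyte-like from these 3 leading genes, although more ependymal than tanycyte markers counted for it. It is called the Crym cluster here. The cluster with all 10 markers supplied 46.1% of class UMIs in PF, 65.0% in HS and 50.4% in QS. In PF its Fos level was 3423 CPM, against 1717 in the Crym cluster. The part of these shares in the class levels of HS was not tested. In the class 141 genes were higher in QS (2.9%) and 82 lower (1.69%). Their share of all cells was 1.61% in PF and 3.2% in QS, a ratio of 2.0 (1.67 to 2.40).

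All 19 tested members of the immediate early list rose in tanycyte-like cells, with a median log2 ratio of 0.95, where 2.9% of all tested genes rose. Fos, a subunit of the AP-1 transcription factor, stood at 2491 CPM in PF, 4945 in HS and 5857 in QS, a QS/PF ratio of 2.35 (2.27 to 2.43) that ranked 12 of 4862. Jun, its partner, stood at 2160, 3983 and 4564 CPM, a ratio of 2.11. In these class levels, which the cluster shares given above also enter, PF was the low library for both, and HS lay near QS. Egr2, a zinc-finger transcription factor, had 27.1, 53.8 and 72.4 CPM and the largest ratio of the list, 2.67. Zfp36, which speeds the decay of cytokine mRNAs, had 256, 554 and 614 CPM, a ratio of 2.39. Klf2, a Krüppel-like factor, had 561, 1243 and 1334 CPM, a ratio of 2.38. HS was above PF for 19 of 19 members and at least 1.5 times PF for 14. Taken alone, the Crym cluster had 15 of 18 members past the fold and the cluster with all 10 markers had 16 of 19. The other classes did not share the pattern of counts: members past the fold upward numbered 4 of 21 in ependymal-like cells, 4 of 20 in the macrophages and 0 in the remaining 6 classes, a difference that was not tested.

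In the list of leptin, insulin and STAT3 signalling 2 of 11 tested members rose and none fell. Socs3, the feedback inhibitor of STAT3 and leptin signalling, stood at 583 CPM in PF, 1431 in HS and 1497 in QS, a ratio of 2.57 (2.40 to 2.75). Stat3 itself, the transcription factor downstream of leptin and interleukin-6 receptors, stood at 336, 533 and 645 CPM, a ratio of 1.92. PF was the low library for both in class levels, which the cluster shares given above also enter. The insulin receptor gene Insr had 82.6, 68.5 and 59.8 CPM, a ratio of 0.724, and the receptor subunit Il6st 102, 128 and 110 CPM, a ratio of 1.07. Neither receptor passed the fold.

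By the ranking of all 4862 tested genes on the interval bound nearest 1, the first 3 of the class's own genes were Cxcl1, Rbfox1 and Nfatc2. Cxcl1 (chr5:90891241-90893115, + strand, mm10), a neutrophil-attracting chemokine, had 13.9 CPM in PF, 85.4 in HS and 93.8 in QS, a ratio of 6.77 (4.46 to 10.8). The cluster with all 10 markers had 21.3 CPM in PF and 159 in QS, while the Crym cluster had 7.66 and 1.48. A single cell held 22.5% of the QS reads, and the ratio without the leading cell of each library was 6.59. Nfatc2 (chr2:168476410-168601657, − strand), a calcium-regulated transcription factor, had 73.9, 246 and 275 CPM, a ratio of 3.73 (3.09 to 4.52), with 3.87 and 3.51 in the 2 clusters. Rbfox1, a splicing regulator best known from neurons, had 26.6, 50.6 and 120 CPM, a ratio of 4.50 (3.31 to 6.27).

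The 250 bases before the start of Cxcl1 are shown because they hold 2 matches, in capitals, to the NF-kB motif, searched on both strands as GGG, any 2 bases and then TTTCC (chr5:90890995-90891244, + strand, RefSeq on GRCm38.p6, 5′ to 3′).
Cxcl1: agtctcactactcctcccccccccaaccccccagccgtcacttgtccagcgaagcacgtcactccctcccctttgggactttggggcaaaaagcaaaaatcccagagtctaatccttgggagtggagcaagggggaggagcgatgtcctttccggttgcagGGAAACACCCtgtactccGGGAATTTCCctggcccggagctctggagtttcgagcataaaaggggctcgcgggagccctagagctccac
The motif occurs in the same window, extended 50 bases past the start, in 1.89% of 27025 genes. Among the NF-kB members that rose and have an entry, Cxcl1 and Nfkbia held it, out of 3. None of 17 matched immediate early members held it. List members that did not rise were not counted.

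In the NF-kB and cytokine list 5 of 10 tested members rose in tanycyte-like cells and Cxcl12 fell, at 58.9 CPM in PF, 38.4 in HS and 30.9 in QS. The 5 were Cxcl1, Socs3, Relb (33.5, 58.6 and 70.4 CPM), Ccl2 (35.8, 67.7 and 66.3) and Nfkbia (180, 236 and 306), the last an inhibitor that NF-kB itself induces. In the interferon list 5 of 22 rose and none fell. Cxcl10, a T cell-attracting chemokine, had 165, 571 and 571 CPM, a ratio of 3.45 (3.04 to 3.93), though 1 cell held 35% of its PF reads. In PF it had 38.3 CPM in the Crym cluster and 312 in the cluster with all 10 markers, so the cluster shares enter its class levels. Ifit1, an antiviral effector, had 148, 300 and 312 CPM, a ratio of 2.10. The median log2 ratio of the list was 0.17, and Isg15, at 86.1, 113 and 87.7 CPM, did not pass. With the PF share of each cluster used as the weight in both libraries, 3 interferon members were past the fold. Both lists depended on the cluster: in the Crym cluster 2 of 11 interferon members rose and 3 fell, and 1 of 8 NF-kB members rose and 3 fell, while in the cluster with all 10 markers 5 of 23 and 5 of 8 rose and none fell. With singly gated barcodes 1 member of each list rose.

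Genes chosen after their values were seen fill in the picture. Gadd45g, a stress-induced regulator of the cell cycle, had 254, 662 and 707 CPM, a ratio of 2.78, and Gem, a small GTPase, had 241, 516 and 654 CPM, a ratio of 2.72. On the lower side, the genes named by rank were Vcan, Slc15a2 and P3h2. Vcan, a matrix proteoglycan, had 238 CPM in PF, 146 in HS and 108 in QS, a ratio of 0.456 (0.393 to 0.529). Slc15a2, a peptide transporter, had 50.3, 25.5 and 20.7 CPM, a ratio of 0.413. P3h2, a collagen-modifying enzyme, had 176, 142 and 91.8 CPM, a ratio of 0.523. In class levels HS lay between the other libraries in these 3 genes, but the cluster shares enter those of Vcan and P3h2. In PF, Vcan had 428 CPM in the Crym cluster and 26.3 in the next largest cluster, and P3h2 had 314 and 21.3. The Crym cluster supplied 52.8% of class UMIs in PF, 32.9% in HS and 45.8% in QS. The part of these shares in the HS levels was not tested. QS/PF ratios in these clusters were 0.513 and 0.590 for Vcan, 0.558 and 1.045 for P3h2, and 0.420 and 0.419 for Slc15a2.

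Of 14 tested members of the tanycyte and thyroid hormone list, 2 fell and none rose, where 1.69% of all tested genes fell. The 10 tanycyte markers summed to 5858, 6599 and 4962 CPM in the PF, HS and QS libraries, and 3 of them were higher in QS than in PF. Rax, a transcription factor that marks tanycytes, had 350 CPM in PF, 332 in HS and 232 in QS, a ratio of 0.662. Crym, which binds thyroid hormone in the cytosol, had 239, 180 and 152 CPM, a ratio of 0.637. Dio2, the enzyme that activates thyroid hormone, had 60.6, 117 and 73.8 CPM and did not pass. Other features of the cells moved with these results. Summed markers of oligodendrocytes were 935, 625 and 449 CPM, those of vascular smooth muscle 415, 191 and 169, and those of B cells 42.7, 4.58 and 5.10. The mitochondrial share was 6.15%, 5.47% and 4.81%, and the median doublet score 0.0799, 0.0557 and 0.0606. The part of these in the results was not tested. Where each barcode was gated on its own markers, 9 PF and 18 QS tanycytes remained and 4 immediate early members rose.

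**Figure D2:**
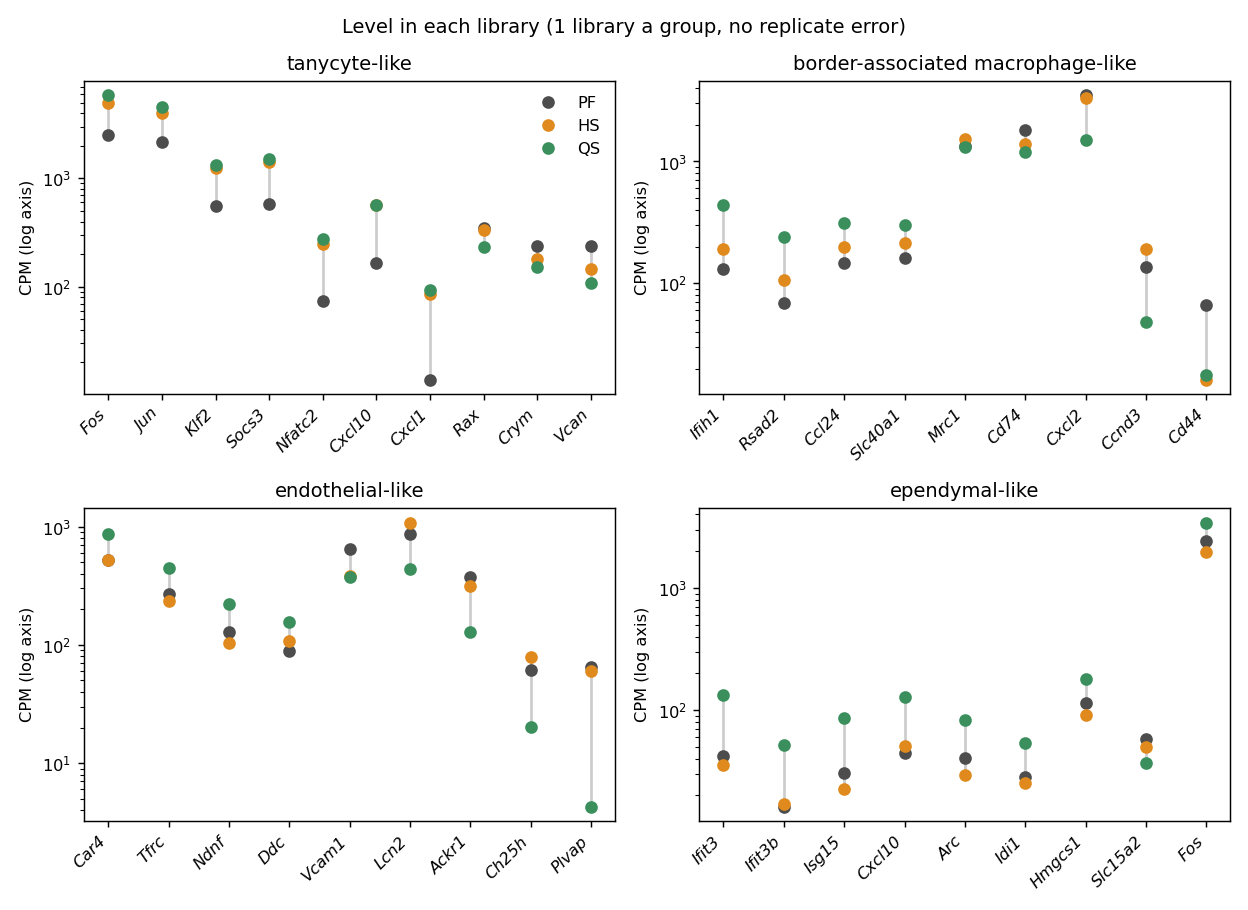
Levels of named genes in CPM on a log axis, 1 point for each of the PF, HS and QS libraries, in tanycyte-like, border-associated macrophage-like, endothelial-like and ependymal-like cells. In tanycyte-like cells the class levels put HS near QS and PF lowest from Fos to Cxcl1, and the cluster shares enter these levels, while in ependymal-like cells QS stands above both other libraries for Ifit3, Ifit3b, Isg15 and Cxcl10.

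Border-associated macrophage-like cells changed in both directions, with 146 genes higher in QS (4.29%) and 130 lower (3.82%). The class held 326 PF, 217 HS and 148 QS cells, 2.75% of PF and 1.37% of QS cells, a ratio of 0.498 (0.407 to 0.606). Among its markers Mrc1, the mannose receptor, stood at 1346, 1534 and 1326 CPM, and all 9 markers together at 5776, 6541 and 6075. The larger cluster alone, with 274, 196 and 132 cells, had 8.23% of its genes past the fold.

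The leading own genes of the macrophages in QS were Lsmem1, Ifih1 and Rsad2. Ifih1 (chr2:62595798-62646255, − strand), the cytosolic sensor of long double-stranded RNA known as MDA5, had 131 CPM in PF, 192 in HS and 442 in QS, a ratio of 3.37 (2.94 to 3.88). Rsad2, the antiviral enzyme viperin, had 69.4, 106 and 241 CPM, a ratio of 3.47 (2.87 to 4.20). A single cell held 33.9% of its QS reads, and without the leading cells the ratio was 2.85. Lsmem1, a membrane protein, had 10.4, 18.9 and 51.0 CPM, a ratio of 4.90 (3.06 to 8.03), with 33.3% of QS reads in 1 cell.

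The interferon list split in this class, with 4 of 18 tested members higher and 4 lower and a median log2 ratio of −0.25. Beside Rsad2, the higher ones were Ifit2 (93.7, 134 and 179 CPM), Ifit1 (61.3, 67.0 and 116) and Cxcl10 (389, 535 and 604). The lower ones were Ifi27l2a (953, 584 and 538 CPM), Ifitm3 (1292, 1129 and 856), Irf7 (130, 108 and 72.3), the factor that amplifies interferon production, and Xaf1 (56.3, 65.4 and 36.6). Isg15, at 211, 210 and 248 CPM, did not pass. Ifit1 had 32.8% of its QS reads in 1 cell.

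Class II antigen presentation genes were among those that fell in the macrophages. Of 13 tested class I members 1 passed the fold downward, but 0 were above PF and the median log2 ratio was −0.32. Of 6 class II members 4 fell, or 2 with doublets kept and 1 with the median ratio scaled to 1. Cd74, the class II invariant chain, had 1818 CPM in PF, 1380 in HS and 1193 in QS, a ratio of 0.656 (0.618 to 0.697). H2-Aa had 362, 257 and 235 CPM, H2-Ab1 217, 170 and 142, and H2-Eb1 271, 249 and 173. When each barcode was gated on its own markers, with 202 PF and 104 QS macrophages, these 4 genes were higher in QS, Cd74 by 1.20, so the direction rests on how the class was drawn. Cxcl2 (chr5:90903871-90905938, + strand), a neutrophil-attracting chemokine, had 3491, 3304 and 1495 CPM, a ratio of 0.428 (0.407 to 0.451). Cd44, a hyaluronan receptor, had 66.3, 16.2 and 17.9 CPM, a ratio of 0.269. Ccnd3, a cyclin of the G1 phase, had 135, 191 and 48.5 CPM, a ratio of 0.358. For Cxcl2 and Ccnd3 the HS level was close to or above PF, whereas for Cd44 HS lay with QS.

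Further genes of the macrophages, chosen after their values were seen, were in the same ranks. Ccl24, an eosinophil-attracting chemokine, had 146, 200 and 313 CPM, a ratio of 2.14. Slc40a1, the iron exporter ferroportin, had 160, 212 and 298 CPM, a ratio of 1.86. Osm, a cytokine of the interleukin-6 family, had 91.7, 52.4 and 34.9 CPM, a ratio of 0.380. Of 20 tested immediate early members 4 rose, Nr4a2, Egr2, Klf4 and Klf2, the last from 2956 CPM in PF and 3192 in HS to 4563 in QS. Summed erythroid markers in this class were 1607, 24.9 and 58.7 CPM, those of tanycytes 29.7, 51.3 and 62.1, and those of fibroblasts 89.0, 102 and 40.8. Their part in the results was not tested.

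**Figure D3:**
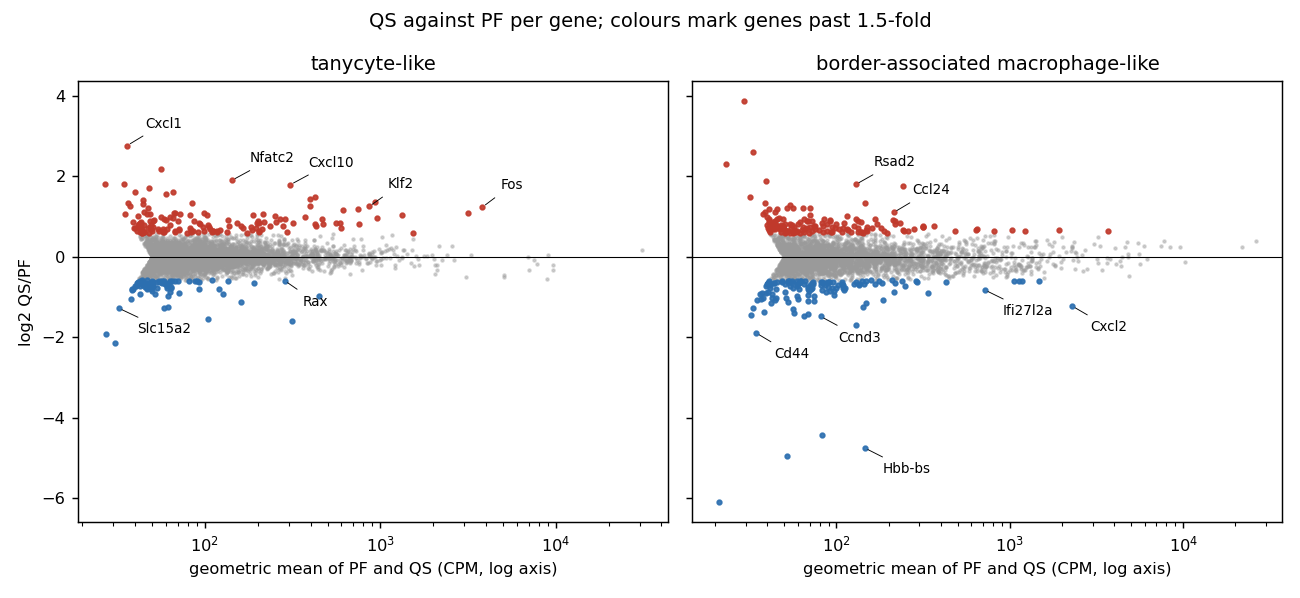
Each point is a tested gene, with the geometric mean of PF and QS in CPM on a log horizontal axis and log2 QS/PF on the vertical axis, in tanycyte-like (left) and border-associated macrophage-like cells (right). Genes past 1.5-fold are red (higher in QS, 141 and 146) or blue (lower, 82 and 130), and haemoglobin genes such as Hbb-bs are the lowest points of the macrophages.

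In ependymal-like cells few genes differed, and 7 of the 23 that rose were members of the interferon list. The class held 1127 PF and 1057 QS cells, with 23 genes higher (0.504%) and 13 lower (0.285%) of 4566. Of the list 12 members were tested and none fell, with a median log2 ratio of 0.90. Ifit3 (chr19:34583531-34588731, + strand), an antiviral effector, had 42.4 CPM in PF, 35.4 in HS and 132 in QS, a ratio of 3.12 (2.82 to 3.46). Its near-identical neighbour Ifit3b had 16.1, 17.1 and 52.0 CPM, and the division of reads between them is uncertain. Isg15, a ubiquitin-like protein, had 30.5, 22.6 and 86.7 CPM, a ratio of 2.84. Cxcl10 had 44.6, 50.6 and 127 CPM, a ratio of 2.85. QS stood above both other libraries for these 4, unlike in tanycyte-like cells, where the class level of Cxcl10 was as high in HS, with the cluster shares entering it. Isg15 and Cxcl10 were under 20% of their highest class level.

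The promoters of 3 of these genes are shown because each holds the interferon-stimulated response element, searched on both strands as GAAA, any 2 bases and then GAAA, with the matches in capitals. They are 250 bases before the start, 5′ to 3′ on the gene's strand, from RefSeq on GRCm38.p6: Ifit3 at chr19:34583279-34583528 (+ strand), Isg15 at chr4:156200819-156201068 (− strand) and Cxcl10 at chr5:92348890-92349139 (− strand).
Ifit3: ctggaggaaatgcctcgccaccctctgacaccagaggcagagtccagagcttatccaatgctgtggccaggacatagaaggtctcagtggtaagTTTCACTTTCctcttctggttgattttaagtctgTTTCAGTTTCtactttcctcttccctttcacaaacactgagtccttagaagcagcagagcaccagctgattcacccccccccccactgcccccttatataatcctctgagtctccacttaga
Isg15: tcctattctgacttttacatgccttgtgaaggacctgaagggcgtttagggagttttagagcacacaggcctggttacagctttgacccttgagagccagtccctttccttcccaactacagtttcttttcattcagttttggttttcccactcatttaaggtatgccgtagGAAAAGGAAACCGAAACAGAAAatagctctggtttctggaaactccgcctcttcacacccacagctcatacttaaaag
Cxcl10: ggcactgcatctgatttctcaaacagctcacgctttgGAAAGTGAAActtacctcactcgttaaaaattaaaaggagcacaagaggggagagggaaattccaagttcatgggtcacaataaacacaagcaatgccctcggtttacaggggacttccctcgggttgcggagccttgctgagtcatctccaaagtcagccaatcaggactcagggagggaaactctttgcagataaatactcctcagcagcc
Ifit3 holds 2 matches, Isg15 3 that overlap and Cxcl10 1. The motif was found for 6 of the 7 ependymal members that rose, Oasl2 being the exception, for 5 of the 5 tanycyte members and for 3.99% of 27025 genes. Members of the interferon list that did not rise were not counted, so these shares do not bear on which members rose. A match describes the sequence and is not evidence of binding.

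Immediate early genes were also higher in ependymal-like cells, with 21 of 21 tested members above PF, a median log2 ratio of 0.50 and 4 past the fold. Arc, a regulator of synaptic receptor traffic, had 40.8, 29.2 and 82.4 CPM, a ratio of 2.02. HS was above PF for 1 of the 21. Of 7 tested genes of cholesterol synthesis and uptake 3 rose and none fell. Idi1, an isomerase of the pathway, had 28.1 CPM in PF, 25.3 in HS and 54.1 in QS, a ratio of 1.92, and Hmgcs1, an early enzyme of the pathway, had 113, 91.4 and 181 CPM, a ratio of 1.6. None of 22 tested motile cilia members passed, with ratios from 0.863 for Spag16 to 1.09 for Foxj1. Of the 3 lowest own genes Slc15a2 fell (58.2, 49.5 and 36.5 CPM, a ratio of 0.627), while Rmst, at 454, 431 and 311 CPM, and Kirrel3, at 165, 131 and 111 CPM, did not pass. Erythroid markers summed to 21.9, 20.7 and 468 CPM in this class, and the median UMIs per cell were 8725, 9859 and 10046; their part was not tested.

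**Figure D4:**
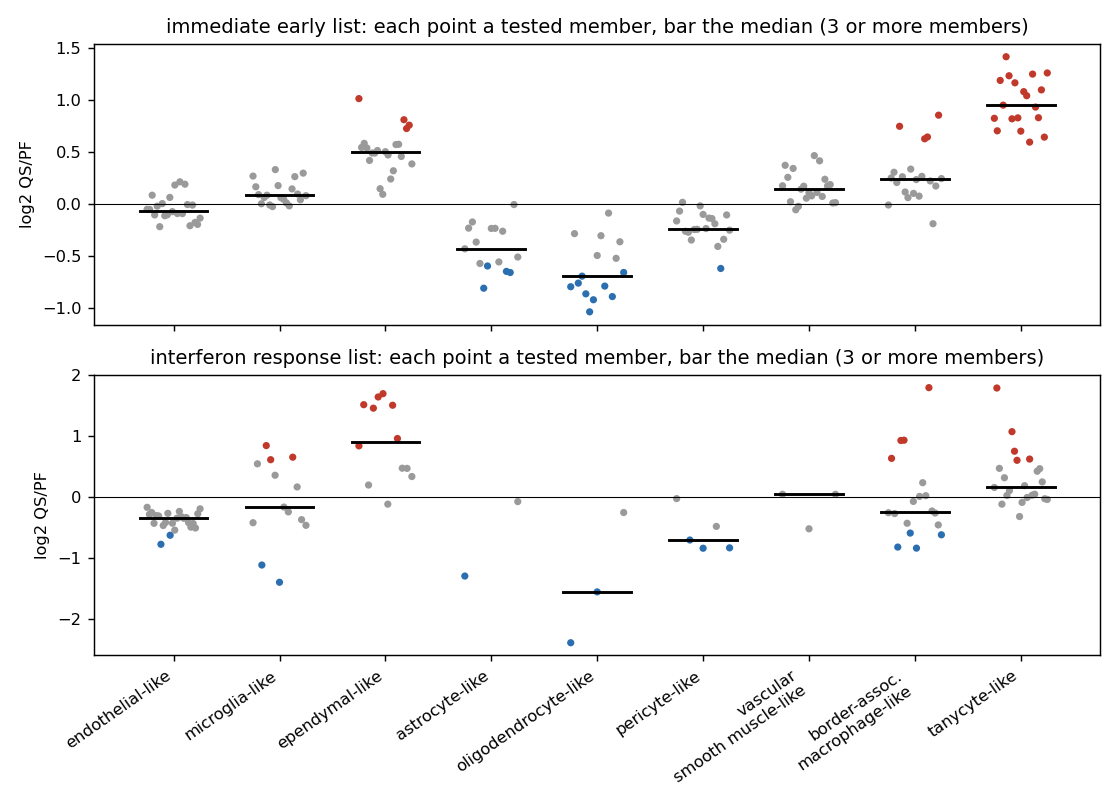
Log2 QS/PF of each tested member of the immediate early (top) and interferon response (bottom) lists in the 9 classes, red or blue where past the fold, with bars for the median where 3 or more members were tested. All 19 immediate early members are red in tanycyte-like cells (median 0.95), and 7 of 12 interferon members are red in ependymal-like cells (median 0.90).

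In oligodendrocyte-like cells the number of higher genes depended on the share of 1 cluster. The class held 962 PF, 891 HS and 1267 QS cells, with 45 genes higher (1.15%) and 37 lower (0.942%) of 3929. A cluster of 66, 63 and 92 cells supplied 11.2% of the class's UMIs in PF, 13.8% in HS and 20.6% in QS. Its cells had medians of 4393, 10542 and 31050.5 UMIs. Marcks, a cytoskeletal regulator and a gene of that cluster, had 335, 481 and 626 CPM in the class, a ratio of 1.86, but 1.06 (1.01 to 1.10) within the cluster. When each cluster was given its PF share in both libraries, 1 of the 45 higher genes stayed past the fold, and 30 of the 37 lower ones. A gene also left this count if its weighted level fell under 50 CPM. The count therefore does not say how many ratios shrank.

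Fam155a (chr8:9205902-9771161, − strand), a subunit of the sodium leak channel, led the rank with 10.4 CPM in PF, 33.9 in HS and 74.3 in QS, a ratio of 7.11 (5.67 to 9.03). A single QS cell held 48.2% of its reads, and the ratio without the leading cells was 5.04. Within the smallest cluster it had 37.4 CPM in PF and 311 in QS, a ratio of 8.32 (5.88 to 12.2). Tmem178 had 22.2, 32.6 and 50.8 CPM, a ratio of 2.29, and Lingo2, a membrane protein with leucine-rich repeats, had 29.7, 53.9 and 65.0 CPM, a ratio of 2.19. The share of the smallest cluster also enters these class levels. Within that cluster Tmem178 had a ratio of 1.385 (1.145 to 1.685), under the fold, and Lingo2 had 1.745. In the larger clusters Tmem178 had 1.503 and 0.835, the latter from 1 UMI in each library, and Lingo2 0.976 and 0.687. Erbb4, a neuregulin receptor named after its values were seen, was higher in each of the 3 clusters, by 1.30, 1.57 and 1.64. Its class levels were 265, 328 and 447 CPM.

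Of the lower genes, Sgk1 (chr10:21882184-21999903, + strand), a kinase induced by glucocorticoids, had 209 CPM in PF, 657 in HS and 77.2 in QS, a ratio of 0.369 (0.341 to 0.400). It was lower in both large clusters, at 0.343 and 0.485. HS was the high library and QS the low one. Hopx had 125, 96.2 and 61.9 CPM, a ratio of 0.497, but 0.675 within the cluster that holds most of its reads, which does not pass. That cluster supplied 29.8%, 30.7% and 21.9% of the class's UMIs. Klk6, a serine protease of mature oligodendrocytes, had 323, 261 and 175 CPM, a ratio of 0.543, but 0.732 within that same cluster. None of 18 myelin genes passed, with Mbp at 4269, 4442 and 4907 CPM. Of 15 immediate early members 9 fell, or 4 with doublets kept, among them Fos at 696, 499 and 382 CPM, a level under 20% of that in the highest class. Markers of endothelial cells in this class summed to 436, 322 and 276 CPM and those of fibroblasts to 25.1, 24.5 and 4.38; their part was not tested.

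**Figure D5:**
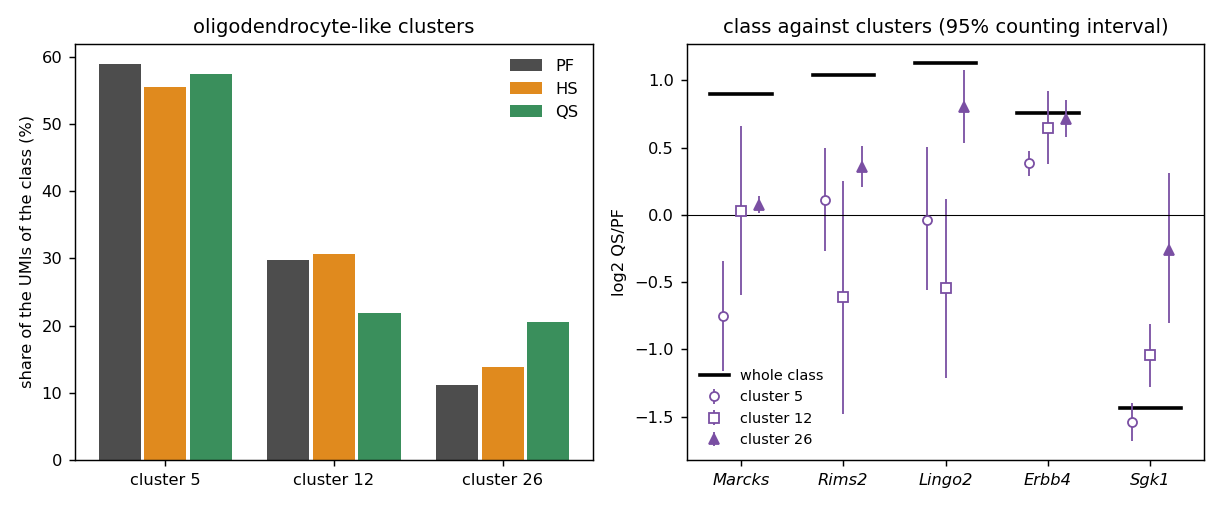
Left, share of the UMIs of oligodendrocyte-like cells from each of 3 clusters in PF, HS and QS (percent); right, log2 QS/PF of 5 genes in the whole class (bars) and within each cluster (points with 95% counting intervals). The smallest cluster supplies 11.2% in PF and 20.6% in QS, and Marcks has a ratio of 1.86 in the class against 1.06 within that cluster.

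Endothelial-like cells, the largest class with 4041 PF and 3186 QS cells, had 14 genes higher in QS (0.348%) and 40 lower (0.995%) of 4020. Car4, a carbonic anhydrase of capillaries named after its values were seen, had 520 CPM in PF, 520 in HS and 872 in QS, a ratio of 1.68 (1.64 to 1.71). The largest cluster, with capillary markers, supplied 31.4% of class UMIs in PF, 33.9% in HS and 41.6% in QS. Within it Car4 had a ratio of 1.458, under the fold. In the other clusters large enough to be taken alone, its ratio ranged from 0.802 to 1.638. Tfrc, the transferrin receptor, had 268, 235 and 444 CPM, a ratio of 1.66, and was the 1 member that rose of 16 tested barrier transport genes. By rank the named genes were Hist1h1c, a linker histone (68.7, 55.4 and 121 CPM, 1.77), Ddc, the enzyme that makes dopamine and serotonin (88.9, 109 and 156, 1.75), and Ndnf, a secreted neurotrophic factor (128, 104 and 222, 1.74). HS was at or near PF for these genes.

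Lowest in rank was Plvap (chr8:71497765-71511752, − strand), the diaphragm protein of fenestrated capillaries. It had 64.7 CPM in PF, 59.7 in HS and 4.26 in QS, a ratio of 0.0658 (0.0535 to 0.0803). Fenestrated cells numbered 71 in PF and 5 in QS. Ackr1, a chemokine receptor of venules, had 374, 314 and 128 CPM, a ratio of 0.343, and 0.436 (0.419 to 0.454) within the venous cluster. That cluster held 727, 680 and 365 cells and 32.5%, 32.4% and 25.8% of class UMIs. Ch25h, which makes 25-hydroxycholesterol, had 61.8, 79.6 and 20.3 CPM, a ratio of 0.328. In the NF-kB and cytokine list 4 of 13 fell and none rose. They were Lcn2, an iron-binding acute phase protein (873, 1081 and 440 CPM), the leukocyte adhesion genes Vcam1 (642, 385 and 372) and Icam1 (749, 579 and 489), and Cxcl1 (268, 174 and 178). With PF cluster weights 1 NF-kB member was past the fold, and 34 genes in all against 54. The junction gene Cldn5 had 3800, 3567 and 4779 CPM and did not pass. Haemoglobin made up 0.122% of the class UMIs in PF and 0.356% in QS.

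Microglia-like cells, 1609 in PF and 1665 in QS, were among the classes that differed least, with 14 genes higher (0.4%) and 17 lower (0.486%) of 3497. None of 16 tested homeostatic members passed, and P2ry12, their purinergic receptor, had 888, 878 and 1042 CPM. Of 13 interferon members 3 rose and 2 fell. Ifit1 had 123 CPM in PF, 119 in HS and 220 in QS, a ratio of 1.79 (1.69 to 1.91), and Isg15 343, 313 and 539 CPM, a ratio of 1.57. Ifi27l2a, in contrast, had 235, 159 and 108 CPM, a ratio of 0.460. Ifnb1, the gene of interferon beta, named after its values were seen, had 222, 199 and 344 CPM, a ratio of 1.55 (1.48 to 1.63). Ccl3, an inflammatory chemokine, had 1406, 1529 and 2228 CPM, a ratio of 1.58. The cluster with both among its leading genes supplied 59.8% of class UMIs in PF, 54.6% in HS and 65.1% in QS. Within it the ratios of Ifnb1 and Ccl3 were 1.44 and 1.48, under the fold. In the other cluster they were 1.69 and 1.55. By rank, Fam71a (29.8, 39.1 and 62.1 CPM) and Ckap2l (84.5, 88.8 and 142) rose, and Ccnd3 and Fkbp5 fell. Ccnd3 had 257, 512 and 148 CPM, and Fkbp5, a glucocorticoid-induced chaperone, 55.6, 147 and 30.4 CPM. For both, QS was below PF while HS was the highest library.

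Astrocyte-like cells had 6 genes higher in QS (0.14%) and 78 lower (1.83%) of 4272, from 1113 PF and 1491 QS cells. Metallothioneins, which bind zinc and copper, were among the lower: Mt1 had 1799, 1695 and 1122 CPM, a ratio of 0.624 (0.603 to 0.645), and Mt3 977, 870 and 571 CPM, a ratio of 0.585. Rhou, a small GTPase, had 162, 241 and 74.6 CPM, a ratio of 0.461. Of 33 nuclear oxidative phosphorylation members 6 fell (median log2 ratio −0.49), and of 36 ribosomal protein members 4 fell (−0.40). The share of the nuclear RNA Malat1 was 9.49%, 10% and 11.1%, and 1 cluster supplied 61.3%, 79.0% and 73.8% of the UMIs. Erythroid markers summed to 1223, 58.1 and 163 CPM. Of the higher genes named by rank, Egfem1 rose (31.8, 44.7 and 51.5 CPM, a ratio of 1.62), while Kcnma1 (270, 374 and 381 CPM) and Sgip1 (199, 233 and 282) did not pass. None of 14 homeostatic members passed, with the water channel Aqp4 at 436, 429 and 396 CPM. With PF cluster weights 55 genes in all were past the fold, against 84.

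In the mural cells that wrap vessels, pericyte-like cells had 31 genes higher (0.728%) and 60 lower (1.41%) of 4256, and vascular smooth muscle-like cells 16 higher (0.451%) and 24 lower (0.676%) of 3551. In pericytes Irf1, an interferon-induced transcription factor, had 209 CPM in PF, 146 in HS and 111 in QS, a ratio of 0.531 (0.445 to 0.633). Ifitm3, which blocks viral entry, had 1551, 1133 and 950 CPM, a ratio of 0.612. Auts2 had 171, 136 and 98.8 CPM, with 21.7% of PF reads in 1 cell and a ratio of 0.579, or 0.712 without it. Dmtf1 (27.3, 46.4 and 56.8 CPM), Rab24 (32.9, 39.5 and 59.2) and the long noncoding RNA Carmn (180, 167 and 274) rose. In smooth muscle Cebpb, a transcription factor of inflammation and metabolism, had 1550, 1795 and 2476 CPM, a ratio of 1.6 (1.54 to 1.66), and the kinase Pim1 142, 165 and 219 CPM. Pi15 (70.6, 49.2 and 38.4 CPM), Mrtfa (177, 171 and 109) and Apba1 (141, 145 and 87.4) fell. None of 15 contractile genes passed, and Myh11, the smooth muscle myosin, had 3118, 3048 and 3010 CPM.

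Genes that were tested and a class's own in at least 5 classes, 2966 in all, were ranked by the median log2 ratio over classes. They gave few shared changes. Genes such as C1qc and Ifitm3, which are a class's own in fewer classes, are outside this ranking. Both were past the fold downward in 6 classes. Hist1h2bc, a core histone gene, was highest at 0.43, higher in 8 of 9 classes and past the fold in 3. Hsp90ab1, a constitutive chaperone, was higher in 9 of 9 classes and past the fold in 0, with a median of 0.33. In smooth muscle it had 1111, 1619 and 1604 CPM, and in microglia 1478, 2117 and 1821, with HS above PF in both. Dusp6 (0.41), Ifit3 (0.36), Nes (0.34), Egr2 (0.34), Anxa2 (0.33) and Creb5 (0.29) completed the upper 8. Slc15a2 was lowest at −0.65 and fell in 3 of 5 classes. Sbno2 (−0.52), Ripk1 (−0.40), Taf4b (−0.39), Cpeb3 (−0.38) and Rbbp8 (−0.36) were also among the lower 8.

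Other lists were counted over the 9 classes, where 1.2% of all pairs were higher and 1.32% lower. Heat shock and chaperone genes had 0 of 176 pairs higher and 7 lower (3.98%). Endoplasmic reticulum stress genes had 2 higher (2.06%) and 0 lower of 97, and cold-inducible genes 0 of 36 either way. Clock genes had 4 higher (5.48%) and 3 lower (4.11%) of 73. Class I antigen presentation genes had 0 higher and 6 lower (8.11%) of 74, with a list median below 0 in 9 of 9 classes. Complement genes had 0 of 42 higher and 12 lower (28.6%). The lower pairs numbered 5 with doublets kept, 6 with 5% free RNA taken off, 7 with singly gated barcodes and 4 at a minimum of 100 CPM. C1qc, a subunit that microglia make, had 3676, 3377 and 3280 CPM in microglia-like cells and did not pass there. Its levels in cells that hardly express it fell: 73.2, 49.7 and 33.9 CPM in ependymal-like, 79.5, 57.4 and 41.0 in oligodendrocyte-like and 109, 75.1 and 61.8 in astrocyte-like cells.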

How the data were processed

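Hypothalamic cells of 3 libraries (PF, HS, QS) were measured by 10x 3′ sequencing. The authors deposited raw UMI counts of each gene in each barcode. Per the file headers they were made with Cell Ranger 7.0.1, whereas Cell Ranger 5.0.0, Seurat 3.1.2 and the mm10 genome stand in the notes on processing by the submitters. The sources used here do not say whether introns were counted.

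Doublets were called per library with Scrublet in Scanpy 1.11.5 and removed (808 in PF, 664 in HS, 718 in QS, 5.40% to 6.39% of barcodes against 9.38% to 10.3% expected). The 3 libraries were clustered together (leidenalg 0.10.2) without integration. Clusters were named from marker lists by the class with the highest share of its markers found. At least 3 markers were needed, and a runner-up at no more than 60% of that share. With a closer runner-up, a class with at least 3 markers among the 10 leading genes gave the name if no other class had any there. The Crym cluster was named in this second way. UMIs were summed per gene, class and library, 79612067 in PF and 77280987 in QS over the 9 classes, and ratios carry exact conditional binomial 95% intervals. Intervals of cell shares are exact Clopper-Pearson ones. Intervals cover counting error only, and no test was made. The script was tested on simulated data.

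Genes were named as the 3 highest and 3 lowest of each class by the interval bound nearest 1, leaving out mitochondrial, ribosomal protein, haemoglobin and provisional genes, symbols with several identifiers and genes under 20% of the highest class level. The 8 highest and 8 lowest medians over classes and up to 4 members of a list were also named, as were markers of each class. Some genes that the rule picks are left out of the text. Members of lists that did not pass, and those said to be chosen after their values were seen, are additional. The members and lists were chosen with earlier results of these data known. Alternatives changed the cell filters, doublet removal, scaling, free RNA, clustering, cluster weights, level minimum and fold. Single genes also had their leading cell left out and the clusters of 2 classes were taken alone, choices made after seeing the data. Gene coordinates are from GENCODE M21 on mm10. Promoters are from RefSeq on GRCm38.p6. Other software was matplotlib 3.10.9, pandas 2.3.3, SciPy 1.17.1, NumPy 2.4.6, Python 3.11.15 and scikit-learn 1.9.0.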

Additional observations from a re-analysis of the deposited data

Results flagged for a closer look

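Some lists and genes moved one way in one class and the other way in another, and these differences between classes were not tested. The median log2 QS/PF of interferon members was 0.898 in ependymal-like cells and −0.708 in pericyte-like cells, where 5 members were tested. For immediate early members it was 0.95 in tanycyte-like cells, −0.432 in astrocyte-like cells and −0.695 in oligodendrocyte-like cells. Cxcl1 had a ratio of 6.77 in tanycyte-like cells and 0.664 in endothelial-like cells. Irf1, an interferon-induced transcription factor, had 1.82 in tanycyte-like cells and 0.531 in pericyte-like cells. Apba1, an adaptor of vesicle traffic, had 1.54 in border-associated macrophage-like cells and 0.620 in vascular smooth muscle-like cells.

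A cluster outside the classes compared held 63 QS cells, 1 PF cell and 3 HS cells. It passed for 10 of 10 ependymal and 9 of 10 endothelial markers and was led by Ptgs2, Ackr1, Lrg1, Lcn2 and Sele. Its QS cells had a median of 2732 UMIs and a median doublet score of 0.0978.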

How the results depend on the processing

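Border-associated macrophage-like and tanycyte-like cells had the highest percentages past the fold under each alternative of the cell filters, scaling, clustering, level minimum and fold. Clustering without HS drew the tanycyte-like class differently, as given below. Over the 1342 genes common to all classes, thinned and counted by the ratio alone without the interval, astrocyte-like cells came first (7.82%). The macrophages (3.58%), oligodendrocyte-like (2.98%) and tanycyte-like cells (2.61%) followed. The cause of each change below was not tested unless named. The level minimum was applied to the levels of each alternative, so a gene could also leave a count by falling under it.

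With PF cluster weights the percentage past the fold was 0.847 (endothelial), 1.29 (astrocyte) and 0.867 (oligodendrocyte), interferon members that rose in tanycyte-like cells numbered 3 and NF-kB members that fell in endothelial-like cells 1. At a fold of 2 the percentages were 0.323 (endothelial), 0.229 (microglia), 0.263 (ependymal), 0.211 (astrocyte), 0.356 (oligodendrocyte), 0.235 (pericyte), 0.169 (vascular smooth muscle), 1.53 (border-associated macrophage) and 1.01 (tanycyte), with 98 pairs higher and 75 lower. With cells weighted equally they were 1.42 (ependymal), 1.23 (oligodendrocyte) and 7.83 (tanycyte), 8 immediate early members rose in ependymal-like cells and 3 NF-kB members in tanycyte-like cells, and Marcks in oligodendrocyte-like cells went to 0.986. A minimum of 100 CPM, which tests fewer genes, gave 0.485 (ependymal) and 1.21 (pericyte), 222 pairs higher and 200 lower, 2 immediate early and 2 interferon members in ependymal-like cells, 4 lower complement pairs and 2 NF-kB members in tanycyte-like cells. A minimum of 20 CPM gave 4.5 (pericyte), 3.03 (vascular smooth muscle), 1014 pairs higher and 1312 lower. With 5% free RNA taken off, astrocyte-like cells had 2.99, immediate early members that rose in ependymal-like cells numbered 11 and lower complement pairs 6. Barcodes gated singly gave 0.729 (vascular smooth muscle) and 24.5 (tanycyte, 9 PF and 18 QS cells), with 4 immediate early, 1 interferon and 1 NF-kB member higher in tanycyte-like cells, 7 lower complement pairs and 0 lower class II members in the macrophages. There Rbfox1 (0.179), P3h2 (2.17), Dusp1 (0.678) and Gadd45g (0.295) reversed in tanycyte-like cells and Cd74 (1.20), H2-Aa (1.87), H2-Ab1 (1.91) and H2-Eb1 (2.12) in the macrophages. Clustering without HS gave 0.746 (vascular smooth muscle), 7.57 (tanycyte) and 3 NF-kB members in tanycyte-like cells. These tanycyte-like cells were another set than the main class. They were 1 cluster of 153 PF and 283 QS cells, with 6 of 10 tanycyte and 8 of 10 ependymal markers. A cluster of 36 PF and 67 QS cells with 9 of 10 tanycyte markers stayed unnamed there, with astrocytes as a close runner-up. The 2 larger tanycyte clusters alone gave 9.18 and 9.82, and in the first, the Crym cluster, 2 interferon members and 1 NF-kB member rose while the list medians turned below 0, an alternative chosen after seeing the data. With doublets kept, 4 immediate early members fell in oligodendrocyte-like cells, 2 class II members in the macrophages and 5 complement pairs. With at most 10% mitochondrial UMIs, 3 interferon members rose in tanycyte-like cells and the oligodendrocyte share ratio was 1.58. With the median ratio scaled to 1, 1 class II member fell. With endothelial-like cells as the denominator the share ratios were 1.31 (microglia), 1.19 (ependymal), 1.70 (astrocyte), 1.67 (oligodendrocyte), 1.09 (pericyte) and 0.793 (vascular smooth muscle). Other results kept their direction.

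No paired analysis was possible because each group has 1 library. Depth limits the smallest classes: genes under 50 CPM were not tested, and 148 QS macrophages leave several genes resting on single cells.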

Other observations

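Haemoglobin and mitochondrial RNA differed between the libraries in every class compared. Haemoglobin made up 0.00347% of microglia-like UMIs in PF and 0.0329% in QS, 0.00561% and 0.0843% in pericyte-like cells, and 0.00265% and 0.099% in vascular smooth muscle-like cells. The order was reversed in astrocyte-like cells, with 0.122% and 0.0162%, and in border-associated macrophage-like cells, with 0.16% and 0.00578%. Oligodendrocyte-like cells were also lower in QS, with 0.00949% and 0.00543%. The mitochondrial share was lower in QS in 9 of 9 classes.

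Rarer cells were not compared gene by gene. B-like cells were 47 in the PF, 45 in the HS and 79 in the QS library, a share ratio of 1.84 (1.27 to 2.70). T or NK-like cells numbered 72, 108 and 109, a ratio of 1.66 (1.22 to 2.27). Monocyte or dendritic-like cells numbered 131, 65 and 40, a ratio of 0.335 (0.229 to 0.480), with medians of 1582 UMIs in PF and 10711.5 in QS. Neuron-like cells numbered 47, 38 and 58.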
